A study of Bostrychia moritziana with 3 samples.

Results

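Among the transcripts of the red alga Bostrychia moritziana, 39 were abundant in the female gametophyte and in the tetrasporophyte but nearly absent from the male gametophyte. They were chosen from the measured values themselves: 10 RPKM (mapped reads scaled to transcript length in kilobases and to a library of 1000000 reads) or higher in female and tetrasporophyte alike, with no more than 0.3 RPKM in the male. They are 39 of 36534 transcripts listed for at least 1 library, and 39 of the 28609 listed for all 3. The female library came from female gametophytes that were forming carpogonial branches, the egg-bearing filaments. The tetrasporophyte library came from tetrasporophytes with mature sporangia, grown from released carpospores. The male library came from male gametophytes that were forming clusters of spermatangia, the structures that release the male gametes. All 3 libraries were of strain 2746, kept as unialgal cultures, with no other treatment named for any of them. Each was made from total RNA of thalli, and the labels do not say how many plants went into it or whether the plants of a stage were 1 clone.

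The life cycle of florideophyte red algae such as Bostrychia includes haploid male and female gametophytes and a diploid tetrasporophyte, whose meiotic spores grow into the next gametophytes. Where sex is fixed in the haploid phase, as in brown algae and bryophytes with separate sexes, the female-determining region lies on a U chromosome and the male-determining region on a V chromosome. A tetrasporophyte then carries both, a female gametophyte only the U and a male gametophyte only the V. A transcript of a U-linked gene with no V-linked copy would be present in female and tetrasporophyte and missing from the male, but so would a gene that every plant carries and that male plants do not transcribe. RNA levels cannot tell these apart, they are not the only possible cases, and none was tested. The transcripts carry only assembly numbers with the prefix ISGT, and no gene name or sequence is paired with these, so no function is given for any of them and the stages could not be checked against marker genes.

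With 1 library per stage there was no replicate spread, and no test was made. Every difference below is between these 3 libraries. The number of reads behind each value is unknown, so no counting interval is given. In libraries of whole thalli, fewer cells of a type and less RNA per cell cannot be told apart. The female and male listings held 30448 transcripts each and the tetrasporophyte listing 34695. RPKM values summed to 455672 in the female, 486668 in the tetrasporophyte and 502958 in the male.

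The female levels of the 39 ran from 10.1 to 64.3 RPKM with a median of 24.8 RPKM. Their tetrasporophyte levels ran from 10.01 to 515 RPKM with a median of 17.3 RPKM. In the male the range was 0 to 0.30 RPKM with a median of 0.15 RPKM. All 3 ranges follow from the choice of the transcripts at their inner edges, and only the outer edges are free. None of the 39 reached 100 RPKM in the female, 1 did in the tetrasporophyte, and 12 stayed below 20 RPKM in both. Together they made up 0.235% of the summed female RPKM, 0.266% of the tetrasporophyte's and 0.00114% of the male's.

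**Figure D1:**
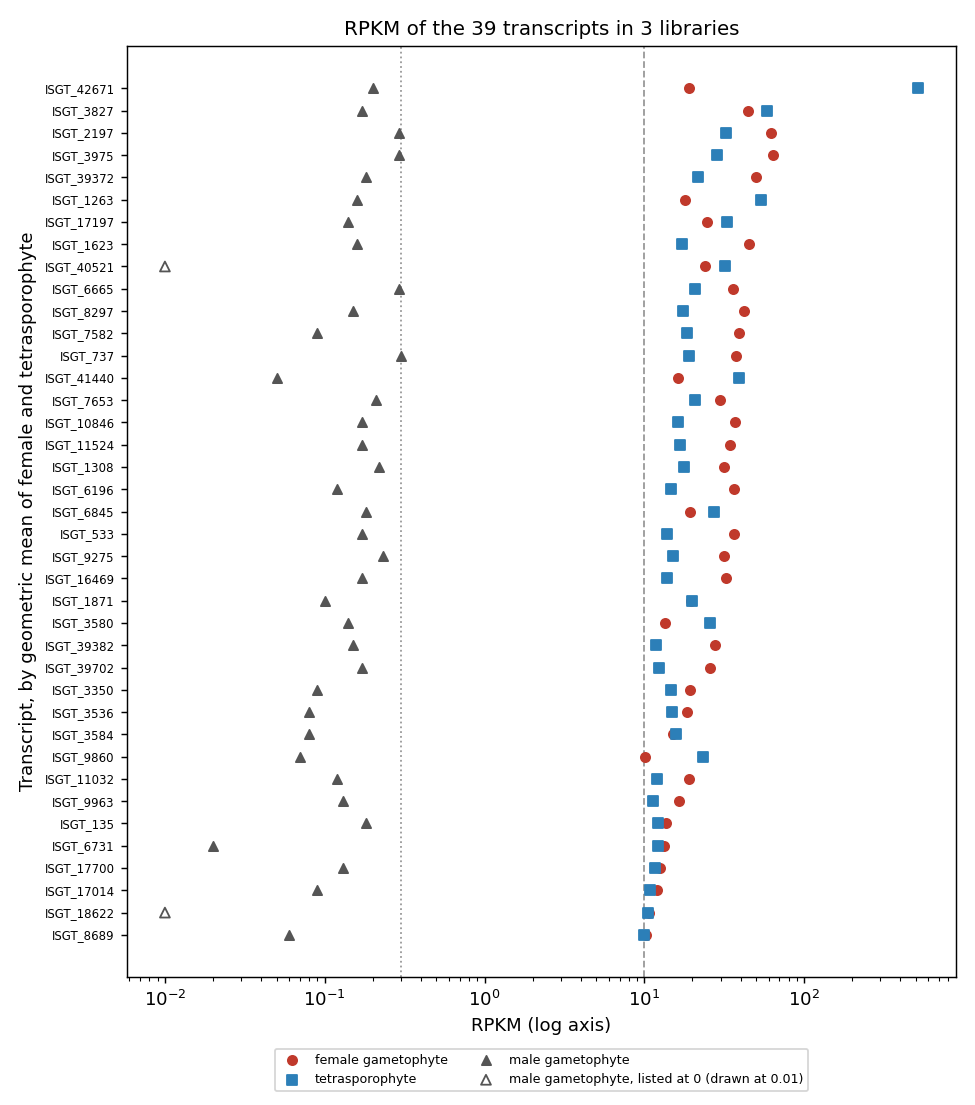
RPKM on a log axis for each of the 39 transcripts in the female (circles), tetrasporophyte (squares) and male (triangles) libraries, ordered by the geometric mean of female and tetrasporophyte. Dashed and dotted lines mark 10 and 0.3 RPKM, open triangles are listed at 0 in the male, and ISGT_42671 stands alone at 515 RPKM in the tetrasporophyte.

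ISGT_42671 was the most abundant of them by the geometric mean of female and tetrasporophyte, with RPKM values of 18.95 (female), 515 (tetrasporophyte) and 0.20 (male). It ranked 80 among all tetrasporophyte values and 5591 among all female values. It is the only one of the 39 whose female and tetrasporophyte levels were more than 4-fold apart. ISGT_3827 followed with RPKM values of 44.7 (female), 58.6 (tetrasporophyte) and 0.17 (male), less than 2-fold apart between female and tetrasporophyte.

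The next 3 were all higher in the female than in the tetrasporophyte. ISGT_2197 had RPKM values of 61.6 (female), 32.4 (tetrasporophyte) and 0.29 (male). ISGT_3975, with the highest female level of the 39, had RPKM values of 64.3 (female), 28.6 (tetrasporophyte) and 0.29 (male). ISGT_39372 had RPKM values of 49.7 (female), 21.6 (tetrasporophyte) and 0.18 (male). These 3 were each about as far above the tetrasporophyte as one another, with female to tetrasporophyte ratios of 1.90, 2.25 and 2.30.

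The 3 least abundant by the same mean stood just inside the limit of 10 RPKM and were nearly even between female and tetrasporophyte. ISGT_8689 had RPKM values of 10.2 (female), 10.01 (tetrasporophyte) and 0.06 (male). ISGT_18622 had 10.6 RPKM in female and tetrasporophyte alike and was listed at 0 in the male. ISGT_17014 had RPKM values of 12.0 (female), 10.8 (tetrasporophyte) and 0.09 (male).

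Against the male, all 39 were at least 4-fold higher in the female and at least 4-fold higher in the tetrasporophyte on the log2(RPKM + 1) scale. Over all transcripts listed for both libraries of a pair of which either reached 1 RPKM, 3.23% were that far higher in the female than in the male and 3.41% that far higher in the tetrasporophyte than in the male. The percentages that far higher in the male were 9.23% against the female and 7.82% against the tetrasporophyte, with none of the 39 among them. The limits that chose the 39 fix this count, so nothing is read from it. They also force high ratios to the male, so the medians and the range in this paragraph are descriptions only. The median log2 ratio of female to male was 4.51 over the 39 and -0.20 over all 20061 transcripts considered. That of tetrasporophyte to male was 3.94 over the 39 and -0.09 over 20150. Both comparisons use the same male library. For the 37 with a male value above 0, the plain ratio of female to male RPKM, with no value added, ran from 76.1 to 664.

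The female to tetrasporophyte ratio has no male value among its terms, but it is not free of the choice of transcripts. Female and tetrasporophyte both had to reach 10 RPKM, and the male level decided which transcripts were compared. On the log2(RPKM + 1) scale this ratio had a median of 0.51 over the 39, with quartiles at -0.03 and 1.03 and a range of -4.69 to 1.34. The female was higher for 28 of the 39 and the tetrasporophyte for 11. The set placed beside them was the 7208 transcripts with at least 10 RPKM in all 3 libraries, which meet the same limit in female and tetrasporophyte but not in the male. The sets were not matched in level. At 30 RPKM or more in the tetrasporophyte, the denominator, were 7 of the 39 and 3285 of the 7208. Their median was 0.00, with quartiles at -0.42 and 0.39, and the female was higher for 49.8%. No member was 4-fold higher in the female, against 1.66% of the 7208, and 1 was 4-fold higher in the tetrasporophyte, against 1.97%. Over all 17592 transcripts considered for this pair the percentages were 3.42% higher in the female and 5.84% higher in the tetrasporophyte.

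The female excess was moderate and of similar size in many of the 39. The log2 ratio lay between 0.5 and 1.5, that is around a doubling, for 20 of the 39 (51.3%), and for 1208 of the 7208 (16.8%). This window was chosen after the values were seen. No log2 ratio of the 39 lay above the window, 14 lay between -0.5 and 0.5, and 5 lay at -0.5 or below. At 2-fold, 12 of the 39 (30.8%) were higher in the female against 7.14% of the 7208, and 4 of the 39 (10.3%) were higher in the tetrasporophyte against 9.11%.

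**Figure D2:**
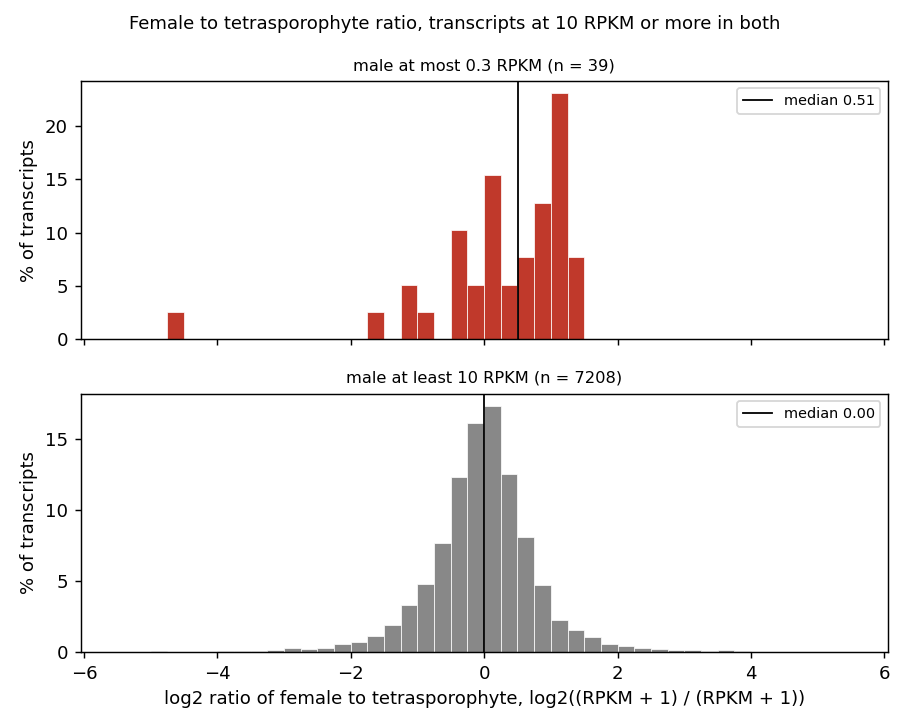
Percentage of transcripts by log2 ratio of female to tetrasporophyte (RPKM + 1, in steps of 0.25) for the 39 transcripts at most 0.3 RPKM in the male (top) and the 7208 at 10 RPKM or more in the male (bottom), with each median as a line. The 39 have their tallest bars around a log2 ratio of 1 and a smaller group around 0, while the 7208 form a single peak at 0.

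The 20 transcripts in the window had female levels of 16.6 to 64.3 RPKM (median 36.3), tetrasporophyte levels of 11.4 to 32.4 RPKM (median 17.0) and male levels of 0.09 to 0.30 RPKM (median 0.17). The 14 near-even ones were lower in the female, at 10.2 to 44.7 RPKM (median 16.8), with 10.01 to 58.6 RPKM in the tetrasporophyte (median 14.9) and 0 to 0.18 RPKM in the male (median 0.09). The 2 groups thus had close medians in the tetrasporophyte and differed in the female, the library whose value enters the grouping.

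The 3 highest female to tetrasporophyte ratios, of plain RPKM, lay close together. ISGT_533 had RPKM values of 36.6 (female), 13.85 (tetrasporophyte) and 0.17 (male), a ratio of 2.64. ISGT_1623 had RPKM values of 45.5 (female), 17.3 (tetrasporophyte) and 0.16 (male), a ratio of 2.63. ISGT_6196 had RPKM values of 36.6 (female), 14.7 (tetrasporophyte) and 0.12 (male), a ratio of 2.49. No other of the 39 stood further above the tetrasporophyte than these.

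The opposite end was more spread out. ISGT_42671, described above, had a female to tetrasporophyte ratio of 0.0368. ISGT_1263 had RPKM values of 17.9 (female), 53.4 (tetrasporophyte) and 0.16 (male), a ratio of 0.335. ISGT_41440 had RPKM values of 16.2 (female), 39.4 (tetrasporophyte) and 0.05 (male), a ratio of 0.411. These 3 had female levels within a narrow band and differed mainly in the tetrasporophyte.

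The size of the ratio went with the female level, as it must in part, since that level is its numerator. Of the 16 transcripts at 30 RPKM or more in the female, 15 lay in the window of 0.5 to 1.5 and their median log2 ratio was 1.1. Among the 7208, the 3219 at 30 RPKM or more in the female had a median of 0.25 and 26.7% in the window. This class has no upper limit and the 16 reached at most 64.3 RPKM, so female levels within it were not matched. Of the 18 below 20 RPKM in the female, 2 lay in the window and the median was 0.01, against -0.26 and 2.91% for the 2333 comparable transcripts. The 5 in between had a median of 0.51 with 3 in the window, against 0.00 and 16.9% for 1656.

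Grouping by the tetrasporophyte level, the denominator, gave medians above those of the comparable transcripts in 3 of 4 classes. From 10 to below 15 RPKM the median log2 ratio was 0.36 over 15 of the 39, against 0.25 over 949 transcripts. From 15 to below 20 RPKM it was 1.00 over 10, against 0.07 over 1192. From 20 to below 30 RPKM it was 0.51 over 7, against -0.03 over 1782. At 30 RPKM or more it was -0.41 over 7, against -0.17 over 3285, so the highest class went the other way.

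The Spearman correlation of female with tetrasporophyte RPKM was 0.36 across the 39 and 0.69 across the 7208. The points share both libraries, the 39 span a narrower range of levels, and transcripts are not independent replicates, so these values are descriptions only.

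The 39 were nearly absent from the male library rather than absent from it. Only ISGT_18622 and ISGT_40521, named here after their values were seen, were listed at 0 in the male. ISGT_40521 had RPKM values of 23.8 (female) and 31.9 (tetrasporophyte). The other 37 had male values of 0.02 to 0.30 RPKM, given to 2 decimals, and 27 of the 39 lay above 0.1 RPKM. The highest was ISGT_737, with RPKM values of 37.5 (female), 19.0 (tetrasporophyte) and 0.30 (male), exactly at the limit. ISGT_2197 and ISGT_3975, above, and ISGT_6665 followed at 0.29 RPKM. ISGT_6665 had RPKM values of 36.05 (female) and 20.75 (tetrasporophyte).

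The male level was 0.526% of the female level at the median of the 39, with quartiles at 0.408% and 0.741%. It ran from 0 for the 2 listed at 0 to 1.31%. The lowest percentage above 0 was 0.151%, for ISGT_6731, named here after the values were seen. Across the 39, the Spearman correlation with the male level was 0.62 for the female level and 0.33 for the tetrasporophyte level. The limit of 0.3 RPKM bounds the male values from above, and low values are coarse at 2 decimals. What the low male values consist of was not tested.

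Because the limit in the male is a fixed level, it cut through this range instead of around it. Just outside, ISGT_41930 had RPKM values of 63.4 (female), 68.2 (tetrasporophyte) and 0.31 (male). ISGT_2641 had RPKM values of 56.4 (female), 22.3 (tetrasporophyte) and 0.32 (male). ISGT_3212 had RPKM values of 68.0 (female), 37.5 (tetrasporophyte) and 0.33 (male). All 3 had female levels near the highest of the 39.

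Measured as a fraction of the female level, 70 transcripts with at least 10 RPKM in female and tetrasporophyte were at 2% or less in the male, all 39 among them. The 31 others had female levels of 21.7 to 587 RPKM (median 102), tetrasporophyte levels of 17.1 to 986 RPKM (median 45.8) and male levels of 0.31 to 4.42 RPKM (median 0.54). Their male level was 0.732% of the female level at the median, and their median log2 ratio of female to tetrasporophyte was 0.79, with 18 of the 31 between 0.5 and 1.5. The limit of 0.3 RPKM in the male thus separated transcripts with overlapping male fractions, and kept mostly those of lower female level. The male level was at most 0.2% of the female's for 3 transcripts, and above 0.2% and up to 1% for 54. It was above 1% and up to 2% for 13, and above 2% and up to 5% for 18. It was above 5% and up to 20% for 82, and above 20% for 7559. These classes differ in width. Counts were thus lower from 1% to 5% than in the class just below, but transcripts lay on both sides of 2%, so that limit does not stand at an empty gap. The limit of 2% was set after the values were seen.

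**Figure D3:**
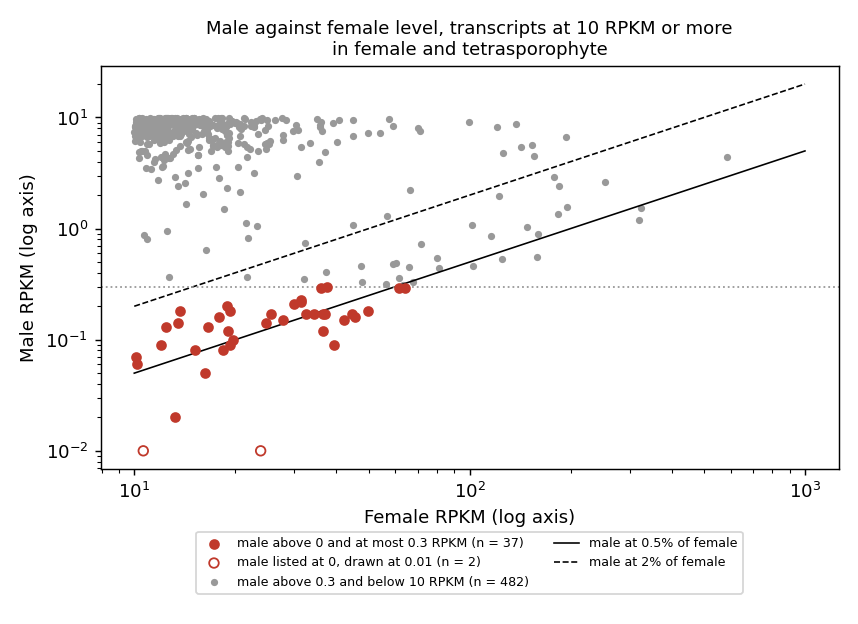
Male against female RPKM, both on log axes, for transcripts at 10 RPKM or more in female and tetrasporophyte and below 10 RPKM in the male; the 37 filled and 2 open red points are the 39 transcripts and the grey points the other 482. Most red points and the grey ones to their upper right lie between or near the solid line (male at 0.5% of female) and the dashed line (2%), and the dotted line at 0.3 RPKM crosses this band.

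The limit of 10 RPKM left out further transcripts with the same low male level. Nearest below it in the lower of female and tetrasporophyte, ISGT_16003 had RPKM values of 9.89 (female), 12.7 (tetrasporophyte) and 0.07 (male). ISGT_8776 had RPKM values of 13.05 (female), 9.83 (tetrasporophyte) and 0.07 (male). ISGT_17895 had RPKM values of 9.74 (female), 12.3 (tetrasporophyte) and 0.08 (male). None of these stood apart from ISGT_8689 just inside the limit.

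Among transcripts at 10 RPKM or more in female and tetrasporophyte, the 39 were 0.505% of 7729. The male level was above 0.3 and up to 1 RPKM for 27 of the 7729, above 1 and up to 5 RPKM for 58, above 5 and below 10 RPKM for 397, and 10 RPKM or more for 7208. Read from the female side, 174 transcripts had at least 10 RPKM in the female and at most 0.3 RPKM in the male. Of these, 98 were missing from the tetrasporophyte listing, 1 stood above 0.3 and up to 1 RPKM there, 36 stood above 1 and below 10 RPKM, and 39 (22.4%) reached 10 RPKM. Read from the tetrasporophyte side, 246 transcripts had at least 10 RPKM there and at most 0.3 RPKM in, or no listing for, the male. Of these, 175 were missing from the female and male listings, and in the female 8 stood above 0.3 and up to 1 RPKM, 24 stood above 1 and below 10 RPKM, and 39 (15.9%) reached 10 RPKM. Both percentages keep the unlisted transcripts in the total. No value is given for the unlisted transcripts, so how many of them were at or near 0, or reached 10 RPKM, is not known.

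The female to tetrasporophyte ratio differed by the male level within the 39 as well. The 12 with at most 0.1 RPKM in the male had a median log2 ratio of 0.01, with 1 between 0.5 and 1.5. The 27 above 0.1 RPKM had a median of 0.91, with 19 in the window. Beyond the limit, the 27 transcripts above 0.3 and up to 1 RPKM in the male had a median of -0.07 with 12 in the window, the 58 above 1 and up to 5 RPKM had -0.21 with 12, and the 397 above 5 and below 10 RPKM had -0.13 with 39. Female and male level went together across the 39, so the male class and the female class are not separate groupings.

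The mirror-image list, made with the same limits but with the sexes exchanged (high in male and tetrasporophyte, nearly absent from the female), held 46 transcripts. Values in its low library were lower. In the 39, 2 were listed at 0 in the male and 27 stood above 0.1 RPKM, with a median of 0.15 RPKM. In the 46, 12 were listed at 0 in the female and 7 stood above 0.1 RPKM, with a median of 0.015 RPKM. As a fraction of the gametophyte that had the transcript, the median of the low library was 0.526% for the 39 and 0.0412% for the 46. The median of 0.015 RPKM lies near the 2-decimal rounding step, so the second percentage is coarse. The libraries also differ in general, the median listed RPKM being 1.34 (female) and 2.55 (male). The part of either in the difference was not tested. The median level in the gametophyte that had the transcript was 24.8 RPKM for the 39 and 26.45 RPKM for the 46. The log2 ratio of gametophyte to tetrasporophyte had a median of 0.51 for the 39, beside 0.00 for the 7208 transcripts at 10 RPKM in all 3. For the 46 it was 0.73, beside -0.04 for the same 7208. The share between 0.5 and 1.5, a window chosen after the values were seen, was 51.3% for the 39 and 43.5% for the 46. Over the 7208 it was 16.8% for female to tetrasporophyte and 15.7% for male to tetrasporophyte. The 2 lists were drawn from the same 3 libraries, and their difference was not tested, as each stage had 1 library.

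**Figure D4:**
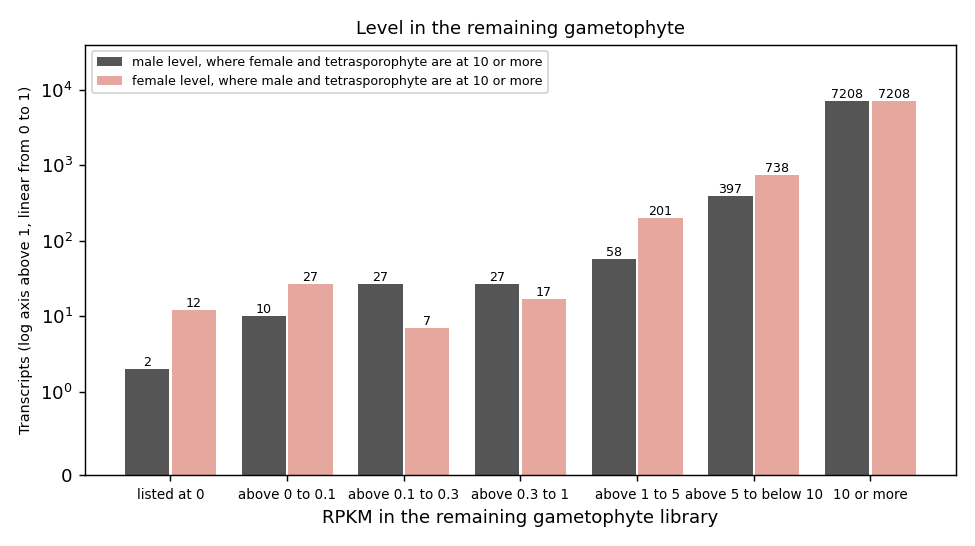
Number of transcripts (log axis above 1, linear from 0 to 1) by RPKM class of the remaining gametophyte library, for the 7729 that reached 10 RPKM in female and tetrasporophyte (dark, male level) and the 8210 that did so in male and tetrasporophyte (light, female level). The 3 classes at the left hold 2, 10 and 27 transcripts on the male side, and 12, 27 and 7 on the female side.

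The 39 had widely ranging transcript numbers, which the choice did not use, in shares that differed from those of the 7729 set beside them. From the lowest number up to 4999 there were 14 of them (35.9%), against 48.1% of the 7729 transcripts at 10 RPKM in female and tetrasporophyte. From 5000 to 9999 there were 11 (28.2%, against 18.0%), and from 10000 to 14999 there were 3 (7.69%, against 6.13%). From 15000 to 19999 there were 5 (12.8%), against 69 of the 7729 (0.893%). None lay between 20000 and 38999, where 82 of the 7729 did, and 6 lay from 39000 on (15.4%, against 25.8%). What a transcript number stands for in the assembly is not given in the sources used here, so nearness in number was not read as nearness in the genome.

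No 2 of the 39 had adjacent numbers. Within 10 numbers of each other were 4, in 2 pairs. ISGT_3580 had RPKM values of 13.5 (female), 25.8 (tetrasporophyte) and 0.14 (male), and ISGT_3584 had 15.2, 15.8 and 0.08 RPKM in the same order. ISGT_39372, given above, and ISGT_39382, with RPKM values of 27.7 (female), 11.8 (tetrasporophyte) and 0.15 (male), formed the other pair. The second pair were alike in female to tetrasporophyte ratio, and the first were not.

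The neighbours by number differed between female and male about as often as those of other abundant transcripts. Of 73 adjacent transcripts with female and male values, 61 (83.6%) were less than 2-fold apart between female and male, against 78.3% of the 14845 neighbours of the 7729. None of the 73 was at least 4-fold higher in the female, against 2.45% of those neighbours, and 1 (1.37%) was at most 0.3 RPKM in the male, against 1.55%. At least 4-fold higher in the male were 3 neighbours, of 3 of the 39 (7.69%), against 10.9% of the 7729 transcripts with such a neighbour. The neighbour of ISGT_3350 had RPKM values of 2.57 (female), 11.8 (tetrasporophyte) and 19.3 (male) (ISGT_3351). That of ISGT_3536 had RPKM values of 1.35 (female), 7.72 (tetrasporophyte) and 24.5 (male) (ISGT_3537). That of ISGT_6196 had RPKM values of 0.53 (female), 4.10 (tetrasporophyte) and 9.08 (male) (ISGT_6197). The share among the 39 rests on 3 transcripts and is not read as different from that among the 7729. Within 2 numbers, both shares were 20.5%.

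ISGT_3350 itself had RPKM values of 19.3 (female), 14.8 (tetrasporophyte) and 0.09 (male). ISGT_3536 had RPKM values of 18.4 (female), 14.99 (tetrasporophyte) and 0.08 (male). The opposite patterns within these pairs, that of ISGT_6196 included, follow from how member and neighbour were chosen.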

How the data were processed

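RNA was measured in 1 library each of female gametophytes, tetrasporophytes and male gametophytes. Per the file headers, the authors deposited RPKM, with 2 decimals, once for each listed transcript. How reads were assembled, aligned and counted, how long each transcript is and how many reads each library held is not given here. The 3 listings were joined on transcript number. A transcript missing from a listing was never taken as a member, and is called missing in the text. RPKM was used without further scaling. Log2 ratios are of RPKM + 1, and 4-fold is a log2 ratio of 2. Transcripts were named by fixed rules of level, ratio, male value, neighbouring number and distance to the limits, with a tie at 0.29 RPKM kept whole; exceptions are marked in the text. The 39 transcripts, the comparison sets and the rules were chosen with earlier results of these data known. With 1 library per stage no test was made. The alternatives were other limits, other pseudocounts and folds, other number distances and filters, and scaling by median of ratios or to an equal sum. The counting was tested on simulated data with planted transcripts well inside the limits and no missing values. That test did not cover planted values near the limits or missing ones. The software was Python 3.11.15 with pandas 2.3.3, numpy 2.4.6 and matplotlib 3.10.9.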

Additional observations from a re-analysis of the deposited data

How the results depend on the processing

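The number of transcripts that met the limits depended on them. It was 98 at 5 RPKM and 8 at 20 RPKM in female and tetrasporophyte, and 2, 12 and 66 with the male at exactly 0, at most 0.1 and at most 1 RPKM, against 39. Median-of-ratios scaling gave 46, of which 38 were among the 39, and scaling each library's RPKM to a sum of 1000000 gave 77, of which 20 were among the 39, since the limits then stand at lower RPKM. The median log2 ratio of female to tetrasporophyte (0.51) was 0.41 and 0.64 with limits of 5 and 20 RPKM, 0.014 and 0.32 with the male at most 0.1 and at most 1 RPKM, 0.70 and 0.61 with median-of-ratios and sum scaling, and 0.53 with a pseudocount of 0.1 and 0.53 with none. The 4 settings of the limits were added after the data were seen. Both scalings moved the 7208 comparison transcripts as well, to medians of 0.20 and 0.09, which left differences of 0.51 and 0.52 against 0.51 without scaling. The count in the window of 0.5 to 1.5 was 19 or 20 under both scalings and both pseudocounts and 14 in a window of 0.75 to 1.25. These settings of the window count were also added after the data were seen. At 2-fold, 12 of the 39 were higher in the female and 4 in the tetrasporophyte, against 0 and 1 at 4-fold. Neighbours of the opposite pattern were found for 8 (20.5%) within 2 numbers, 15 (38.5%) within 5 numbers and 0 when the neighbour had to reach 10 RPKM in the male with at most 0.3 RPKM in the female, against 3 for adjacent numbers. Among the 7729 transcripts at 10 RPKM in female and tetrasporophyte the percentages were 20.5%, 41.4% and 1.04%. Within 1 number of another lay 0 of the 39, and within 100 numbers 11, against 4 within 10. No paired analysis was possible because each stage has 1 library. Read totals are unknown, so the precision of male values near 0 cannot be stated.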
